A study of Mus musculus with 6 samples.

Results

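The 9 genes described here are imprinted growth regulators, that is, genes known in mice to be expressed mainly from the copy of 1 parent: Dio3, Magel2, Dlk1, Ndn, Peg3, Mest, Plagl1, Grb10 and Cdkn1c. They were found by symbol among the 22173 genes of the authors' table, and all 9 had values. The set was selected on the measured levels of Dio3 and Magel2, which differed strongly between groups of these libraries, so the values of those 2 genes are given as a description, with no test, and the other 7 were tested within a fit of all genes. RNA-seq was made from primary articular chondrocytes, the cells of joint cartilage, of wild-type mice. There were 3 groups of 2 libraries each: control, the condition called aging SNL in the labels, and aging SNL plus spesolimab, which is a humanised antibody against the IL-36 receptor. SNL is not expanded in the labels, which gave no age and no strain, and did not give the animal or culture behind each replicate, so p-values measure only the spread between these libraries, and that spread may be technical. The data do not tell the parental copies apart.

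Genomic imprinting silences 1 parental copy of a gene through DNA methylation set in the germ line, and imprinted genes lie in clusters that share control regions. Many of them set the pace of growth before birth: paternally expressed genes such as Mest, Peg3, Dlk1 and Plagl1 and maternally expressed genes such as Cdkn1c and Grb10 form a group that is switched on together in fetal tissues and turned down as growth slows. Dio3 inactivates thyroid hormone, which drives the maturation of growth plate chondrocytes, and Magel2 and Ndn encode MAGE proteins of the region lost in Prader-Willi syndrome.

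Library totals ranged from 16566791 to 17312833 counts, and levels below are CPM, counts scaled to library depth after TMM normalisation, unless TPM, which also corrects for transcript length, is named. A single library, aging SNL replicate 1, lay far from the rest, at 67.94 on the first principal component, where the others lay between -18.78 and -6.457. The defining chondrocyte gene Col2a1 was at 45300 and 41780 CPM in the control pair, 7683 and 45410 CPM in the aging SNL pair and 44450 and 48720 CPM in the spesolimab pair. Sox9, the master regulator of chondrocytes, was at 71.5 CPM in aging SNL replicate 1 and between 149.5 and 207.4 CPM elsewhere. Of 13 chondrocyte markers 12 were lowest in aging SNL replicate 1, and their summed level was 14540 CPM there against 68600 to 84310 CPM in the others. Acan, another defining chondrocyte gene, was at 2499 and 3745 CPM in the control pair and 636.7 and 7531 CPM in the aging SNL pair. With spesolimab Acan was at 3308 and 6491 CPM. In bulk RNA, fewer cells of a type and less RNA per cell cannot be told apart. The 7 neuron markers, which are of interest because Magel2 and Ndn are best known in neurons, were all under 1 CPM in each library. Macrophage markers summed to 115.5, 149.3 and 156.6 CPM in replicate 1 of control, aging SNL and spesolimab, and to 26.4, 41.5 and 38.5 CPM in replicate 2, and 0 of the 10 were at 0 in all libraries. Synovial or other fibroblast markers summed to 26830 and 20430 CPM in the control pair and 17040 and 17290 CPM in the aging SNL pair. They summed to 24740 and 20170 CPM in the spesolimab pair. Of these 11 markers, 6 had a log2 fold change above 0 in aging SNL against control in 6 libraries, and 5 below 0. Without aging SNL replicate 1 the split was the same, with log2 fold changes from -1.52 to 1.80. With spesolimab against control, in a fit of those 4 libraries, 7 were above 0 and 4 below. There edgeR called 3 of the 11 higher, among them Dpt and Clec3b, where 1.51% of all genes were called higher. In 6 libraries it called 0 of the 11 in either comparison. Because 1 library could decide a comparison, the fold changes of the 9 genes in aging SNL are given with all 6 libraries and without aging SNL replicate 1. In the second fit the lone aging SNL library is assumed to vary like the other groups. In that fit all 13 chondrocyte markers had a log2 fold change above 0 in aging SNL against control, with a median of 0.38.

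The genes differed widely in level. By TPM, Mest was the most abundant, between 624.2 and 3300.2 TPM over the 6 libraries, which placed it between rank 32 and rank 195 of all genes. Cdkn1c ranged from 89.2 to 678 TPM, Peg3 from 126.5 to 749 TPM and Plagl1 from 74.5 to 409 TPM, and these ranges overlapped. Grb10 lay between 96.1 and 271 TPM, Dlk1 between 125 and 213 TPM and Ndn between 38.5 and 108 TPM. Dio3 and Magel2 were far lower, from 5.29 to 37.2 TPM and from 0.11 to 8.45 TPM. In each library the level of Dio3 and that of Magel2 were below those of the other 7 genes.

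Dio3 encodes the type 3 deiodinase, the selenoenzyme that converts thyroid hormones to inactive forms. It stood at 26.8 and 27.6 CPM in the control pair (469 and 493 counts), at 5.84 and 4.22 CPM in the aging SNL pair (94 and 70 counts), and at 14.4 and 7.41 CPM in the spesolimab pair (246 and 126 counts). The 3 groups did not overlap: control was highest, aging SNL lowest, and both spesolimab libraries lay between them. Of all genes, 21.1% had both aging SNL libraries below both controls. Both spesolimab libraries lay above both aging SNL libraries in 13.5% and below both controls in 24.6%. The edgeR log2 fold change in aging SNL was -2.44 ± 0.35 (SE), a 5.41-fold lower level, and -2.69 ± 0.39 without aging SNL replicate 1. With spesolimab Dio3 was at a log2 fold change of -1.32 ± 0.26 against control in a fit of those 4 libraries. Against aging SNL it was at 1.11 ± 0.35 in the 6 libraries and 1.115 ± 0.409 in a fit of the 4 libraries compared. Leaving out 1 library moved this value over a range of 0.56 to 1.515, and the spesolimab pair was 1.94-fold apart. From the control mean, Dio3, a gene selected for its values, lay at -2.22 log2 units in the odd library, aging SNL replicate 1. It lay at -2.69 in the partner library. Mest, at -1.89 and -0.55, and Cdkn1c, at -2.33 and -0.05, were also below the control mean in both aging SNL libraries.

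Magel2 encodes a MAGE protein that works with a ubiquitin ligase and the WASH complex in sorting membrane proteins on endosomes. It stood at 1.77 and 3.03 CPM in the control pair (31 and 54 counts), at 0.311 and 18.3 CPM in the aging SNL pair (5 and 304 counts), and at 5.78 and 15.9 CPM in the spesolimab pair (99 and 271 counts). The first aging SNL library was under and the other over the controls, and they were 59.0-fold apart. Both spesolimab libraries lay above both controls, as they did in 23.8% of all genes. The log2 fold change in aging SNL was 1.95 ± 1.47 (SE) in the 6 libraries, 2.93 ± 0.56 without replicate 1 and -2.93 ± 1.11 without replicate 2. With spesolimab it was 2.17 ± 0.51 against control in the fit of those 4 libraries. Against aging SNL it was 0.22 ± 1.52 in the fit of the spesolimab and aging SNL libraries. Leaving out 1 library moved the latter over a range of -0.75 to 5.10, so its sign was not stable. Replicate 2 was above replicate 1 in each group, 1.71-fold in control and 2.76-fold with spesolimab.

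**Figure D1:**
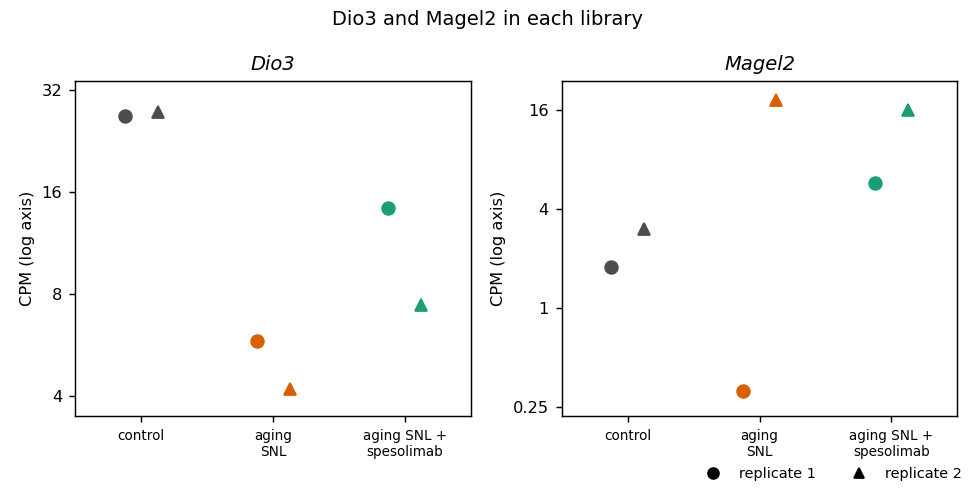
Levels of Dio3 and Magel2 in CPM (log axis) in the 6 libraries, 1 point per library, with circles for replicate 1 and triangles for replicate 2. Dio3 lies at 26.8 and 27.6 CPM in the control pair and at 5.84 and 4.22 CPM in the aging SNL pair, whereas the aging SNL points of Magel2 are 59.0-fold apart.

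The starts of these genes are shown because their levels went different ways, together with that of Ndn, a gene that neighbours Magel2 on chromosome 7 and whose level in 5 of the 6 libraries stayed within 65.7 to 74.8 CPM. The windows run from 250 bases before to 50 bases after the annotated start, on the plus strand, as RefSeq gives them for build GRCm38.p6, an earlier build than the GRCm39 of the submitters' notes: chr12:110278980-110279279 for Dio3, chr7:62376729-62377028 for Magel2 and chr7:62348027-62348326 for Ndn. Capitals mark CpG sites, the substrate of the methylation that marks imprints.
Dio3: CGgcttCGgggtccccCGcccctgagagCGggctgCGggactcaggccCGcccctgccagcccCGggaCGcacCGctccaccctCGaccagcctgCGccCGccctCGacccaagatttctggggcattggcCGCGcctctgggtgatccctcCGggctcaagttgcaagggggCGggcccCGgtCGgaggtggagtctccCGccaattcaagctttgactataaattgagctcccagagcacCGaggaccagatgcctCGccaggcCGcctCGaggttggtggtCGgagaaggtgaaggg
Magel2: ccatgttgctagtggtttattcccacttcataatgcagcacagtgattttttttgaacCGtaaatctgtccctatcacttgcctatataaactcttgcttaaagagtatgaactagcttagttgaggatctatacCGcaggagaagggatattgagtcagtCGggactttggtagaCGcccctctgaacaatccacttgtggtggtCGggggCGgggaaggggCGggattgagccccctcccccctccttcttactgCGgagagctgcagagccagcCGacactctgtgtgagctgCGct
Ndn: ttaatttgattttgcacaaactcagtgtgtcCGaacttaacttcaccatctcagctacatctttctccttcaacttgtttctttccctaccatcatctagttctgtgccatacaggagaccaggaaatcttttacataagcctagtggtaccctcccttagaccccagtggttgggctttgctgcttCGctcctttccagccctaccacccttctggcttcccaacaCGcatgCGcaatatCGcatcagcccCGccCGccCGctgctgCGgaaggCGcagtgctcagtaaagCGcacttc
The Dio3 window held 25 CpG sites and was 69% G or C, the Magel2 window held 10 and was 51% G or C, and the Ndn window held 11. The median over 32544 RefSeq windows of this length was 7 CpG sites. Both strands of the windows were searched for the AP-1 motif TGANTCA, the NF-kB motif, the core of the hypoxia element ACGTG, the nuclear receptor element AGGTCA and the hexamer TGCCGC read by the imprint protein ZFP57. Magel2 held 1 AP-1 match, a motif found in 7.79% of all windows, and Dio3 and Ndn held 0 matches to any of the 5 motifs. The other motifs were found in 0.415% (NF-kB), 19.7% (hypoxia core), 16.2% (nuclear receptor) and 11.7% (ZFP57 hexamer) of windows. Of the 8 members with an entry, Plagl1 held 2 hypoxia cores and 1 ZFP57 hexamer, Dlk1 held 1 hypoxia core, and of windows of genes with several starts 2 of Mest and 1 of Grb10 held the ZFP57 hexamer. Of all 11 windows of these genes, the first of Grb10 was the richest, with 45 CpG sites.

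Among the paternally expressed growth genes, Mest, an enzyme-like protein of the endoplasmic reticulum that marks growing mesoderm, was at 3110 and 3613 CPM in the control pair, 909.5 and 2294 CPM in the aging SNL pair, and 2915 and 2925 CPM in the spesolimab pair. Both aging SNL libraries were below both controls, and the spesolimab libraries lay between the groups. The 3 tested osteoblast markers, Ibsp, Sp7 and Phex, were also lowest in the aging SNL pair. Of all genes, 21.1% had both aging SNL libraries below both controls. Both spesolimab libraries lay above both aging SNL libraries in 13.5% of genes. Ibsp, a bone sialoprotein, was at 289.2 and 182.9 CPM in the control pair, 78.9 and 73.7 CPM in the aging SNL pair, and 328.9 and 105.3 CPM in the spesolimab pair. Sp7, the osteoblast transcription factor osterix, was at 11.1 and 15.1 CPM, 4.53 and 7.83 CPM, and 10.3 and 11.4 CPM. All 3 tested markers of the 5 listed had a log2 fold change below 0 in aging SNL (median -1.28, and -0.88 without replicate 1) and above 0 with spesolimab against aging SNL (1.09 and 0.69), with 0 called. The list summed to 304.8 and 201.0 CPM in the control pair, 85.2 and 83.6 CPM in the aging SNL pair, and 343.1 and 119.3 CPM in the spesolimab pair, while Bglap and Dmp1 were under 1 CPM in all 6. Whether osteoblasts or other cells expressed these markers was not tested, nor was the part of such cells in the values of Dio3 and Mest. In aging SNL the log2 fold change of Mest was -1.07 ± 0.44 (SE, edgeR adjusted p = 0.404) in 6 libraries, and Mest was not called. Without aging SNL replicate 1 the log2 fold change of Mest was -0.55 ± 0.15. Against aging SNL, the spesolimab cells were at 0.87 ± 0.43 (adjusted p = 0.956) and, without replicate 1, at 0.35 ± 0.15 (adjusted p = 0.783). Mest was the 1 row of the 9 with counts that were not whole numbers, and it overlaps Copg2.

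Peg3, a zinc finger protein of growth and maternal behaviour, was at 1891 and 2108 CPM in the control pair, 725.7 and 3209 CPM in the aging SNL pair, and 2238 and 3362 CPM in the spesolimab pair. The lowest of the 6 libraries and the highest but 1 were both aging SNL, and both spesolimab libraries lay above control. The log2 fold change in aging SNL was -0.02 ± 0.67 (edgeR adjusted p = 0.989) in 6 libraries and 0.68 ± 0.23 (adjusted p = 0.169) without replicate 1. With spesolimab against control it was 0.49 ± 0.20 in the fit of those 4 libraries (adjusted p = 0.281), and replicate 2 was above replicate 1 in each group.

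Plagl1, a zinc finger factor known as a hub that activates other imprinted genes, was at 840.8 and 666.1 CPM in the control pair, 223.4 and 766.8 CPM in the aging SNL pair, and 924.2 and 983.3 CPM in the spesolimab pair. Both spesolimab libraries were above the other 4. Its log2 fold change with spesolimab was 0.34 ± 0.13 against control in the fit of 4 libraries (edgeR adjusted p = 0.258) and 0.31 ± 0.16 against aging SNL without replicate 1 (adjusted p = 0.783), and in aging SNL it was -0.61 ± 0.55 (adjusted p = 0.676) in 6 libraries and 0.03 ± 0.16 (adjusted p = 0.948) without replicate 1.

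Dlk1, a membrane protein related to Notch ligands that holds back the maturation of fat and cartilage precursors, was at 98.7 and 138.5 CPM in the control pair, 114.1 and 141.0 CPM in the aging SNL pair, and 120.5 and 156.5 CPM in the spesolimab pair. All 3 groups overlapped. Aging SNL replicate 1 was here within the range of the others, and replicate 2 exceeded replicate 1 by 1.4-fold, 1.24-fold and 1.3-fold in control, aging SNL and spesolimab. The log2 fold change in aging SNL was 0.10 ± 0.23 (edgeR adjusted p = 0.872), which on TPM values turned to -0.12, and 0.25 ± 0.22 (adjusted p = 0.577) without replicate 1. Ndn, which encodes necdin, a MAGE protein that restrains proliferation and promotes survival of neurons, was at 70.5 and 65.7 CPM in the control pair, 33.2 and 74.8 CPM in the aging SNL pair, and 69.4 and 73.3 CPM in the spesolimab pair. For Ndn the log2 fold change in aging SNL was -0.33 ± 0.36 (edgeR adjusted p = 0.732) in 6 libraries and 0.14 ± 0.09 (adjusted p = 0.459) without replicate 1. Leaving out aging SNL replicate 1, the highest and lowest libraries of Ndn differed by 1.14-fold, the narrowest range among the 9 genes. Those of Magel2 next to it, a gene selected for its values, differed by 10.3-fold.

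Of the growth inhibitors expressed from the maternal copy, Cdkn1c, the CDK inhibitor p57 that lets growth plate chondrocytes leave the cell cycle, was at 508.0 and 421.4 CPM in the control pair, 92.5 and 448.8 CPM in the aging SNL pair, and 567.8 and 513.9 CPM in the spesolimab pair. One aging SNL library lay within the control range and the other was 4.55-fold under the lowest of the other 5 libraries. In aging SNL its log2 fold change was -0.78 ± 0.68 (edgeR adjusted p = 0.661) in 6 libraries and -0.05 ± 0.14 (adjusted p = 0.881) without replicate 1. Grb10, an adaptor that dampens insulin and IGF receptor signals, was at 538.4 and 601.9 CPM in the control pair, 285.1 and 590.6 CPM in the aging SNL pair, and 514.8 and 606.9 CPM in the spesolimab pair. In aging SNL it was at -0.38 ± 0.34 (adjusted p = 0.676) in 6 libraries and at 0.05 ± 0.14 (adjusted p = 0.871) without replicate 1. With spesolimab against aging SNL it was at 0.36 ± 0.34 (adjusted p = 0.956) in 6 libraries and -0.07 ± 0.14 (adjusted p = 0.918) without replicate 1.

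**Figure D2:**
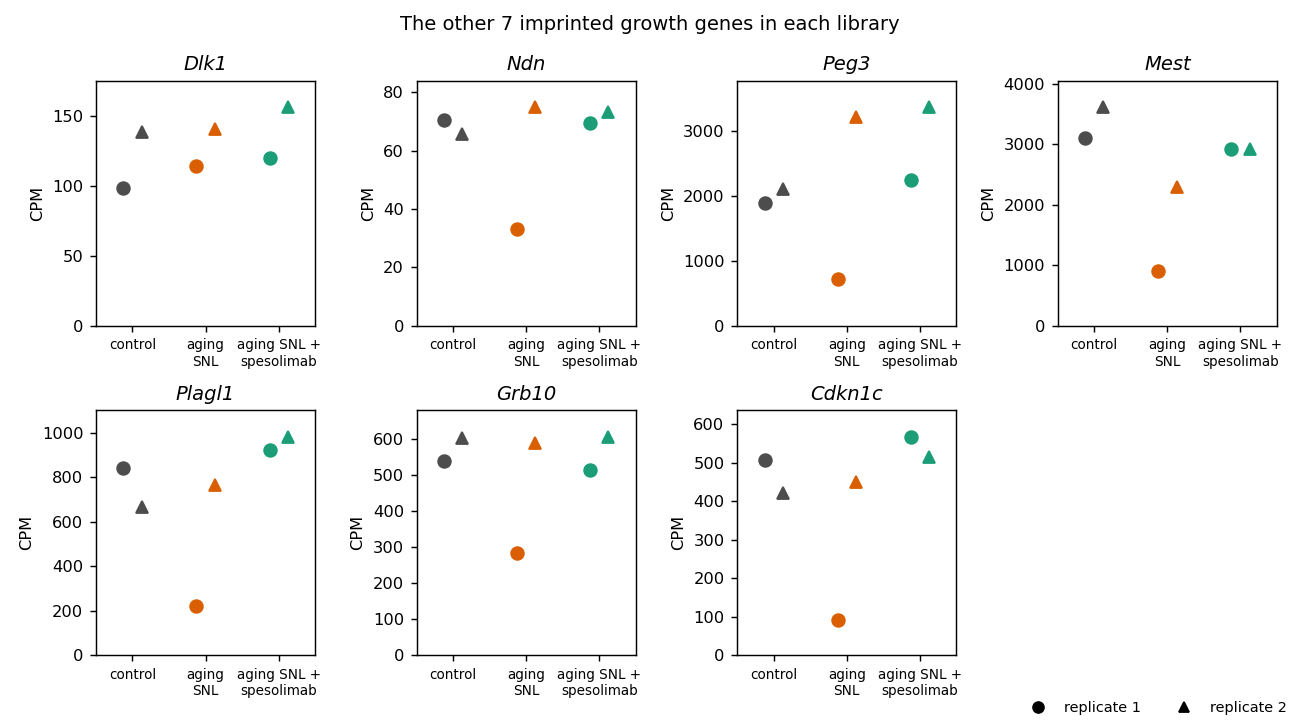
Levels in CPM of the other 7 genes in the 6 libraries, 1 point per library, with circles for replicate 1 and triangles for replicate 2 and each axis from 0. Aging SNL replicate 1 is the lowest point of every gene shown but Dlk1, and Mest is the gene in which the second aging SNL library is also below both controls.

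The aging SNL comparison asked what that condition changed in chondrocytes. Of the 7 genes that the choice did not use, 1, Mest, lay below both controls in both aging SNL libraries and 0 lay above, where 21.1% of all genes lay below and 20.9% above. Aging SNL replicate 1 was the lowest library for 6 of the 7, as it was for 33.2% of the 13399 genes tested. For 4 of them, Cdkn1c, Plagl1, Peg3 and Mest, it was over 2-fold under every other library, as it was for 3.14% of genes. The aging SNL replicates were over 2-fold apart, with replicate 2 higher, in 6 of the 7 genes and in 7.04% of all genes. The ratio of replicate 2 to replicate 1 in aging SNL was 4.85 for Cdkn1c, 4.42 for Peg3, 3.43 for Plagl1, 2.52 for Mest, 2.25 for Ndn and 2.07 for Grb10. The low level of chondrocyte markers in the same library is given above, and its part in these values was not tested.

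In the 6 libraries edgeR called 0 of the 7 tested genes in aging SNL against control, with 0 at an unadjusted p under 0.05, where it called 0.0% of all genes. In all 1694 genes reached an unadjusted p under 0.05, and DESeq2 called 445 genes, 3.32%, and 0 of the 7. Without aging SNL replicate 1 edgeR called 3.43% of all genes and 0 of the 7, with Mest and Peg3 at an unadjusted p under 0.05. Without aging SNL replicate 2 it called 12.3% of genes lower and 6 of the 7 lower, Dlk1 being the exception. The median log2 fold change of the 7 genes was -0.38 in 6 libraries, 0.05 without replicate 1 and -1.47 without replicate 2, while that of all genes was 0.01, 0.00 and -0.01.

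**Figure D3:**
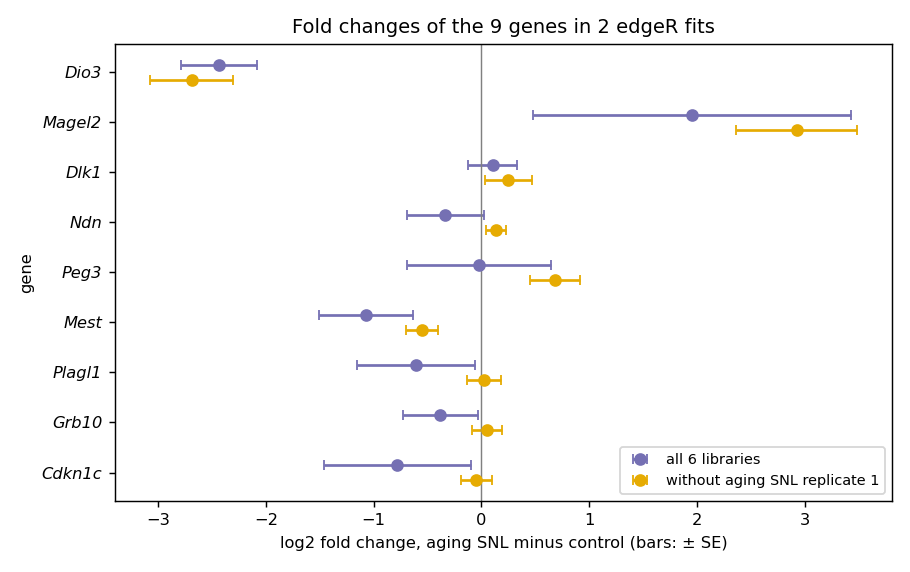
Log2 fold changes of the 9 genes in aging SNL against control from edgeR with all 6 libraries and without aging SNL replicate 1, with bars of 1 SE. Dio3 is at -2.44 and -2.69, Mest stays below 0 in both, and Peg3 moves from -0.02 to 0.68.

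The next comparison set aging SNL cells with spesolimab against those without it. That the antibody acted on the receptor of these mouse cells was not tested here. Against aging SNL all 7 genes had a log2 fold change above 0 in the 6 libraries, with a median of 0.51, but without aging SNL replicate 1 it was above 0 for 3 and below 0 for 4, with a median of -0.03. The spesolimab libraries lay above both aging SNL libraries in 3 of the 7 genes, namely Mest, Plagl1 and Cdkn1c, as they did in 13.5% of all genes. EdgeR called 0 of the 7 tested genes and 0.0% of all genes, both in 6 libraries and without aging SNL replicate 1, and 0 of the 7 had an unadjusted p under 0.05 in either fit. In all, 392 genes were at that level in 6 libraries and 848 without replicate 1. DESeq2 called 3 genes, 0.0224%, and 0 of the 7. Without aging SNL replicate 2, a fit that rests on replicate 1, 6 of the 7 were called higher, where 9.59% of genes were.

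Spesolimab-treated cells were also set against control, a comparison that leaves out both aging SNL libraries but shares its controls with the first. Of the 7 genes, Peg3, Plagl1 and Cdkn1c lay above both controls in both libraries, as did 23.8% of all genes, and Mest lay below both, as did 24.6%. In the fit of those 4 libraries edgeR called 2.88% of genes and 0 of the 7, with Peg3 and Plagl1 at an unadjusted p under 0.05, and in 6 libraries it called 0.0% of genes and 0 of the 7 with 0 at an unadjusted p under 0.05, where 827 genes in all were at that level. DESeq2 called 1.19% of genes and 0 of the 7. Cdkn1c was at 0.22 ± 0.12 (edgeR adjusted p = 0.420), Dlk1 at 0.22 ± 0.18 (0.616), Ndn at 0.07 ± 0.08 (0.722; below 0, at -0.02, on TPM values), Grb10 at -0.02 ± 0.11 (0.949) and Mest at -0.20 ± 0.12 (0.470) in the fit of 4 libraries.

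Neighbours in the same imprinted regions were read from a list of 35 genes, of which 25 had values and 22 were tested. In aging SNL against control 6 of the 22 were higher and 16 lower, with a median log2 fold change of -0.16, and without aging SNL replicate 1 there were 9 higher and 13 lower, with a median of -0.06. EdgeR called 0 of them in 6 libraries, where the lowest adjusted p was 0.305, and 1, Cobl, without replicate 1, where 1.61% of all genes were called lower. In spesolimab against control, which shares its controls with the first comparison, 14 were higher and 8 lower. Cobl was the 1 called in the fit of those 4 libraries, where 1.37% of genes were called lower. In 6 libraries edgeR called 0 of the 22 in this comparison, with a lowest adjusted p of 0.953. Cobl, an actin nucleator next to Grb10, was at 28.9 and 28.8 CPM in the control pair, 5.84 and 16.9 CPM in the aging SNL pair, and 20.4 and 19.8 CPM in the spesolimab pair. In 6 libraries it was at -1.34 ± 0.46 in aging SNL (edgeR adjusted p = 0.353). It fell in aging SNL by 0.77 ± 0.11 (edgeR adjusted p = 0.0213) without replicate 1 and with spesolimab by 0.52 ± 0.09 (adjusted p = 0.0329). Ddc, on the other side of Grb10, had 48 and 32 counts in the control pair, 33 and 27 in the aging SNL pair and 50 and 40 in the spesolimab pair.

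In the region of Dlk1 and Dio3 on chromosome 12, Rtl1, a retrotransposon-derived gene of the placenta and muscle, was at 85.8 and 79.4 CPM in the control pair, 32.1 and 89.4 CPM in the aging SNL pair, and 88.4 and 98.5 CPM in the spesolimab pair. Begain, at the edge of the region, was between 1.80 and 4.41 CPM. Without aging SNL replicate 1 the log2 fold change in aging SNL was 0.11 ± 0.10 for Rtl1 and -0.06 ± 0.31 for Begain. Dlk1 was at 0.25 ± 0.22 in that fit. Dio3, at -2.69 ± 0.39, was selected for its values, so its distance from these neighbours is a description only. The non-coding RNAs of the region, Meg3, Rian, Mirg and Dio3os, were not found among the genes with values and are not analysed here. Strand was not stated for the counting, so reads of Dio3os over Dio3 would not be told apart from those of Dio3.

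In the Prader-Willi and Angelman region on chromosome 7, Ube3a, a ubiquitin ligase, lay between 105.5 and 116.0 CPM in the 6 libraries and Atp10a, a lipid flippase, between 28.9 and 50.5 CPM. Mkrn3, a zinc finger gene that restrains puberty, had 52 and 27 counts in the control pair, 37 and 33 in the aging SNL pair and 42 and 38 in the spesolimab pair. Snrpn, a spliceosome component, was between 5.90 and 8.59 CPM, and Snurf, which shares its transcript, between 5.49 and 8.07 CPM, so these rows may divide the same reads. Peg12 was between 2.17 and 3.62 CPM. None of the other genes of the region with a tested value was called in 6 libraries or in the fit of control and spesolimab. Without aging SNL replicate 1 their log2 fold changes in aging SNL ran from -0.49 ± 0.30 (Peg12) to 0.25 ± 0.27 (Snrpn). Magel2, at 2.93 ± 0.56 in that fit, was selected for its values, so its distance from these neighbours is a description only.

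In the Peg3 region, Zim1, a zinc finger gene expressed from the maternal copy, was at 233.7 and 257.7 CPM in the control pair, 57.0 and 415.1 CPM in the aging SNL pair, and 285.8 and 539.5 CPM in the spesolimab pair, and ranked the 6 libraries in the same order as Peg3. Usp29, whose order differed, is a deubiquitinase that shares its start region with Peg3 and was at 3.20 and 2.80 CPM, 1.99 and 4.94 CPM, and 3.04 and 6.71 CPM. It had the same lowest library and the same 2 highest as Peg3, but control replicate 1 above control replicate 2. None was called, Zim1 being at 0.75 ± 0.27 (edgeR adjusted p = 0.225) with spesolimab against control without aging SNL replicate 1, and Usp29 at 0.70 ± 0.38 (0.428). In the Mest region Copg2, a coat protein subunit, was at 112.4 and 115.4 CPM in the control pair, 86.8 and 95.1 CPM in the aging SNL pair, and 104.9 and 98.9 CPM in the spesolimab pair, below control in all 4 like Mest, with -0.26 ± 0.09 in aging SNL without replicate 1 (0.177). Klf14 lay between 3.67 and 5.78 CPM and Cpa4, a carboxypeptidase, between 2.65 and 5.18 CPM.

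Near Cdkn1c on chromosome 7 lies Igf2, the fetal growth factor, which was at 5744 and 5836 CPM in the control pair, 4098 and 8144 CPM in the aging SNL pair, and 7441 and 8472 CPM in the spesolimab pair. Both spesolimab libraries were above both controls, at 0.46 ± 0.13 without aging SNL replicate 1 (edgeR adjusted p = 0.131), and aging SNL replicate 1 was the lowest. Cd81, a tetraspanin, went the other way in that library, at 341.7 CPM against 222.5 to 246.4 CPM in the other 5. Nap1l4, Osbpl5 and Tssc4 lay between 83.8 and 96.9 CPM, 64.6 and 76.0 CPM, and 17.7 and 23.5 CPM, and Slc22a18 between 1.81 and 2.64 CPM. Phactr2, next to Plagl1, was between 79.8 and 124.3 CPM. None of these was called in 6 libraries, without aging SNL replicate 1 or in the fit of control and spesolimab.

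**Figure D4:**
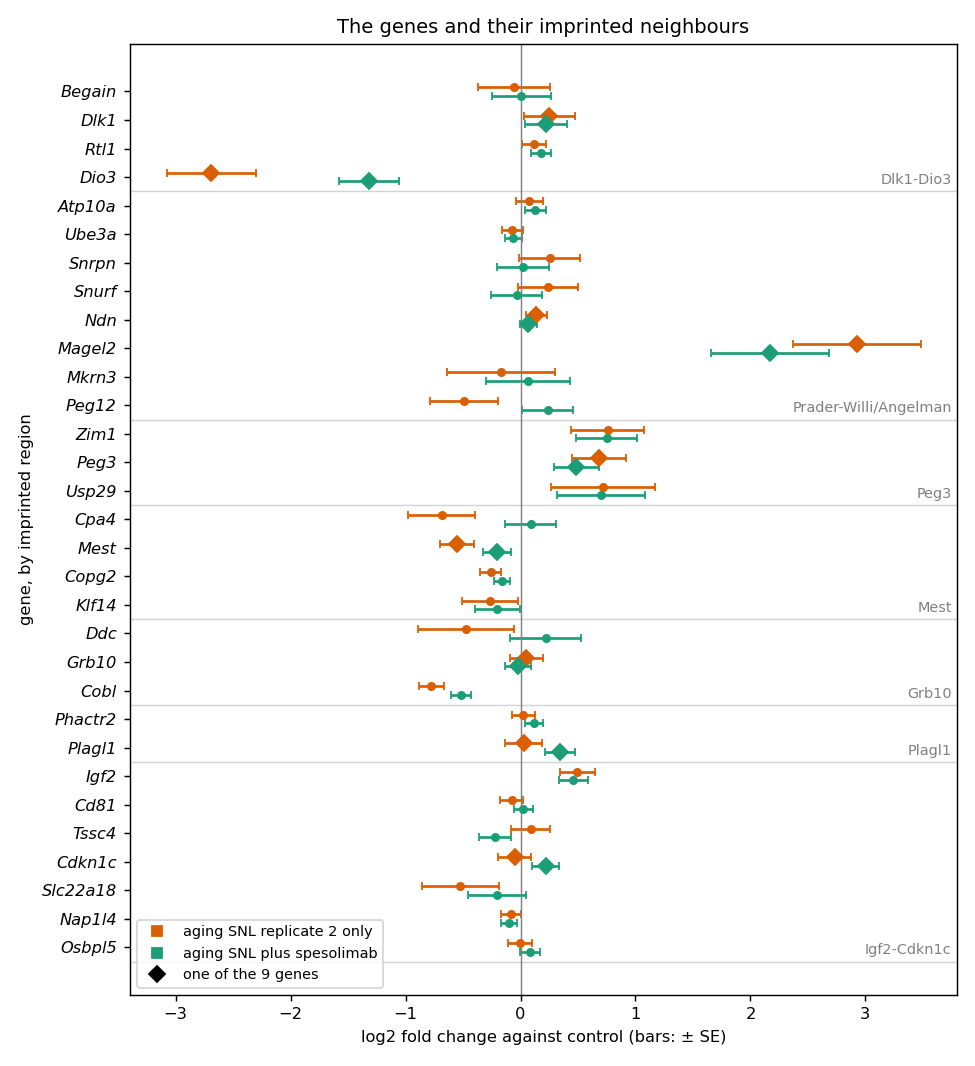
Log2 fold changes against control, with bars of 1 SE, of the genes and their tested neighbours by imprinted region, for aging SNL without replicate 1 and for spesolimab in the fit of its 4 libraries. Dio3 and Magel2, the genes the set was selected on, are drawn beside their neighbours for their values alone, and Zim1, Peg3 and Usp29 all lie above 0.

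Imprinted genes of other regions were read from a list of 32, of which 23 were tested in 6 libraries. In aging SNL 10 were higher and 13 lower with a median log2 fold change of -0.02, and edgeR called 0 in 6 libraries and 0 of 24 without aging SNL replicate 1. Dcn, the small proteoglycan decorin, was at 1927 and 1508 CPM in the control pair, 6246 and 2829 CPM in the aging SNL pair, and 2747 and 2598 CPM in the spesolimab pair, all 4 above control, at 0.72 ± 0.17 in aging SNL without replicate 1 (edgeR adjusted p = 0.0750). Pon3, a lactonase, was at 135.2 and 135.0 CPM, 163.7 and 168.1 CPM, and 152.9 and 158.0 CPM. Htr2a, a serotonin receptor, was at 29.7 CPM in aging SNL replicate 1 and between 2.83 and 5.47 CPM elsewhere. Gnas, the stimulatory G protein subunit, lay between 761.0 and 992.7 CPM and H13, a signal peptide peptidase, between 101.3 and 131.6 CPM.

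Genes that carry, sense or respond to thyroid hormone, the substrate of Dio3, were read from a list of 20, of which 16 were tested in 6 libraries. In aging SNL 9 were higher and 7 lower, with a median log2 fold change of 0.10, and edgeR called 0. Klf9, a transcription factor induced by thyroid hormone and also by glucocorticoids, was the 1 of 17 called without aging SNL replicate 1 and the 1 of 16 called with spesolimab against control in the fit of 4 libraries; 1.81% and 1.51% of all genes were called higher in these fits. It was at 60.7 and 52.2 CPM in the control pair, 193.7 and 96.7 CPM in the aging SNL pair, and 123.7 and 108.9 CPM in the spesolimab pair. In 6 libraries it was at 1.36 ± 0.33 in aging SNL (edgeR adjusted p = 0.2496) and at 1.04 ± 0.33 with spesolimab (0.660). It rose by 0.78 ± 0.12 in aging SNL without replicate 1 (edgeR adjusted p = 0.0296) and by 1.04 ± 0.10 with spesolimab (adjusted p = 0.0107). Slc16a10, a transporter of aromatic amino acids and thyroid hormone, was at 3.20 and 2.80 CPM, 8.63 and 6.02 CPM, and 3.15 and 4.06 CPM, and was not called (1.00 ± 0.27 without replicate 1, adjusted p = 0.101). Thrb, a thyroid hormone receptor, lay between 5.05 and 8.70 CPM. Dio2, the deiodinase that activates the hormone, was at 40.0 CPM in spesolimab replicate 1 and between 11.4 and 16.9 CPM in the other 5 libraries, and Slc7a8, a transporter, was highest in the same library, at 2.39 CPM.

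Of 17 MAGE proteins and retromer and WASH partners of Magel2, 16 were tested and 0 were called in 6 libraries or without aging SNL replicate 1. Their log2 fold changes in aging SNL lay between -0.20 and 0.12 in 6 libraries and between -0.20 and 0.40 without replicate 1. Maged1 was between 436.1 and 589.4 CPM, Trim27, the ubiquitin ligase bound by MAGEL2 in human cells, between 27.0 and 34.3 CPM, Usp7 between 114.6 and 123.4 CPM and Vps26b between 75.6 and 86.5 CPM. Maged2 was at 120.4 CPM in aging SNL replicate 1 and between 202.2 and 257.9 CPM elsewhere.

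Of 17 tested genes of imprint maintenance and DNA methylation 2 were called without aging SNL replicate 1, both lower, and the same 2 with spesolimab against control in the fit of 4 libraries, where 1.61% and 1.37% of all genes were called lower. Zfp57, the zinc finger protein that guards imprints in the early embryo, was at 8.34 and 7.68 CPM in the control pair, 5.34 and 2.83 CPM in the aging SNL pair, and 4.38 and 3.94 CPM in the spesolimab pair. It fell by 1.497 ± 0.23 in aging SNL without replicate 1 (edgeR adjusted p = 0.0293). Uhrf1, which brings the maintenance methyltransferase to newly copied DNA, was at 11.5 and 17.7 CPM, 4.97 and 4.34 CPM, and 5.08 and 4.65 CPM, and fell by 1.75 ± 0.30 in the same fit (adjusted p = 0.0359). In 6 libraries edgeR called 0 of the 17, with Uhrf1 at -1.65 ± 0.25 in aging SNL (adjusted p = 0.165) and Zfp57 at -0.97 ± 0.32 (0.348). With spesolimab against control the lowest edgeR adjusted p among the 17 was 0.275 in 6 libraries. Zfp445 lay between 157.0 and 188.5 CPM, Trim28 between 104.0 and 142.4 CPM, Dnmt3a between 66.7 and 83.4 CPM and Dnmt3b between 1.55 and 3.504 CPM. Cell cycle genes moved with Uhrf1, which is itself expressed in S phase: 14 of 14 had a log2 fold change below 0 in aging SNL in 6 libraries, where edgeR called 0 of them (lowest adjusted p = 0.108), and 11 of 14 were called lower without replicate 1, as were 1.61% of all genes. Mki67 was at 84.2 and 113.8 CPM in the control pair, 34.04 and 34.04 CPM in the aging SNL pair, and 32.9 and 33.7 CPM in the spesolimab pair. The part of the cell cycle in the values of Uhrf1 and Zfp57 was not tested.

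Of 24 partners of the growth regulators, such as cyclins, insulin receptor substrates and Notch pathway genes, 22 were tested and edgeR called 0 in aging SNL in 6 libraries, with a lowest adjusted p of 0.237, and 2 lower without replicate 1, Ccnd1 and Grb14, where 1.61% of all genes were called lower. They are named here after their values were seen. Ccnd1, cyclin D1, was at 150.9 and 161.9 CPM in the control pair, 145.5 and 69.9 CPM in the aging SNL pair, and 92.7 and 100.9 CPM in the spesolimab pair. Grb14, a relative of Grb10, was at 70.7 and 73.5 CPM, 113.5 and 43.6 CPM, and 52.1 and 48.6 CPM, so that its aging SNL libraries lay on either side of control. Ccne2, a cyclin of the kinase that p57 inhibits, was at 5.89 and 10.04 CPM in the control pair, 1.06 and 2.53 CPM in the aging SNL pair, and 2.45 and 3.30 CPM in the spesolimab pair, with an adjusted p of 0.0820 in edgeR without replicate 1. Cdkn1a, the related inhibitor p21, was at 98.5 and 135.6 CPM, 340.6 and 166.4 CPM, and 117.6 and 151.1 CPM, opposite to Cdkn1c in aging SNL replicate 1. Jag1, a Notch ligand, lay between 9.16 and 17.2 CPM, Irs2 between 24.6 and 42.1 CPM and Traf2 between 21.96 and 44.04 CPM.

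Genes with the pattern most like that of Magel2 were sought among 10595 genes with a mean of at least 5 CPM, by Pearson's r of log2 CPM over the 6 libraries, which share their groups and the odd library. The 5 closest were Clec3a, a lectin of cartilage (r = 0.999), Tom1l2, an endosomal adaptor (0.998), Sox8, a factor of the Sox9 family (0.997), Celsr2, a cadherin of cell polarity (0.996), and Hapln1, the link protein that fixes aggrecan to hyaluronan (0.996). Clec3a was at 69.0 and 81.9 CPM in the control pair, 30.4 and 224.0 CPM in the aging SNL pair, and 119.6 and 201.8 CPM in the spesolimab pair. Sox8 was at 5.37 and 7.51 CPM, 1.55 and 39.5 CPM, and 17.1 and 39.4 CPM, and Hapln1 at 659.7 and 792.1 CPM, 403.7 and 1638 CPM, and 954.9 and 1429 CPM. Tom1l2 lay between 109.8 and 195.7 CPM and Celsr2 between 10.5 and 41.3 CPM. Without aging SNL replicate 1 the correlations of these genes with Magel2 were 0.991 to 0.999. For Dio3 the closest were Ttl, a tubulin ligase (r = 0.994), Ak5, an adenylate kinase (0.993), Angpt4, an angiopoietin (0.986), Pigx (0.986) and Fahd2a (0.986). Ak5 was at 43.0 and 35.7 CPM in the control pair, 12.4 and 10.2 CPM in the aging SNL pair, and 24.2 and 14.9 CPM in the spesolimab pair. Angpt4 was at 11.9 and 14.4 CPM, 4.22 and 2.59 CPM, and 6.66 and 4.18 CPM. Over so few libraries the closest of many genes reach values near 1, and they are given as a description only.

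**Figure D5:**
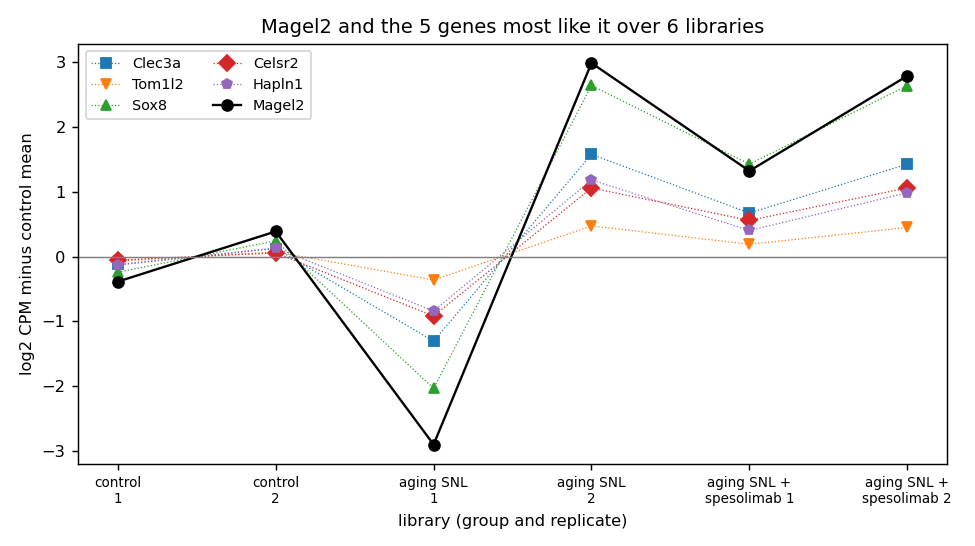
Log2 CPM minus the mean of the 2 controls, by library, for Magel2 (black) and the 5 genes most like it, with lines drawn only to guide the eye. All 6 genes are lowest in aging SNL replicate 1 and above control in the other 3 treated libraries.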

How the data were processed

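Per the labels' protocols, poly(A) RNA was enriched with oligo(dT) beads and the cDNA was read as DNA nanoballs. The submitters' processing notes list RSEM 1.3.1, Bowtie2 2.3.4.3, build GRCm39 and DESeq2 1.4.5, with no roles; annotation and strand are not given in the sources used here. The deposited table gives expected counts per gene, unscaled, of which 12.3% are not whole numbers. Its TPM values, corrected by the authors for transcript length and depth, are named so per the file headers. Its FPKM values, deposited per the file headers, were not used, nor were 9 columns of group averages. Of 22173 genes 17189 had values.

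Expected counts were rounded. In edgeR 4.0.16 (R 4.3.3), filterByExpr (minimum count 10, minimum total 15) kept 13399 genes, TMM set the effective depths, and the quasi-likelihood test used all 6 libraries with 3 residual degrees of freedom. Benjamini-Hochberg adjustment ran over all genes, with a threshold of 0.05. The approximate SE is the size of a log2 fold change over the root of its F statistic. For Dio3 and Magel2, selected for their values, it is a description and does not measure evidence. Alternatives were DESeq2 1.42.0, RLE size factors, no filter, limma 3.58.1 on log2(TPM + 1) or log2(TPM + 0.1), a replicate block, the 4 libraries compared, and leaving out each library. The fit was also run on simulated counts in which all libraries shared the same spread. No simulated library was set apart as aging SNL replicate 1 was, so that run does not cover such a library. Spread between libraries, more than depth, set the precision: edgeR's biological coefficient of variation was 0.205 in 6 libraries and 0.0926 without aging SNL replicate 1. No group held the same library again: replicates had a chi-square per degree of freedom of 13.4 in control, 234.5 in aging SNL and 17.4 with spesolimab.

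The members and lists were chosen with earlier results of these data known. Named genes are the 9 members, their neighbours with a mean of at least 1 CPM, the 3 genes of lowest p of each other list in each of the first 2 comparisons, and the 5 genes most like Dio3 and Magel2. Some cell cycle genes under this rule are given only as counts. Promoter windows came from RefSeq, build GRCm38.p6.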

Additional observations from a re-analysis of the deposited data

How the results depend on the processing

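In 6 libraries edgeR called 0 genes in each comparison, as it did with RLE size factors, with no filter, and as limma did on TPM values. With the replicate number as a replicate block edgeR also called 0 genes in each comparison (lowest adjusted p = 0.168, 0.874 and 0.301), and the block changed no call among the 7 tested genes. Deviations of same-numbered libraries from their group means correlated at 0.246, 0.419 and 0.286, a hint from the data and not from the labels that the numbers pair the libraries. DESeq2 called 445 genes in aging SNL against control, 3 in spesolimab against aging SNL and 160 in spesolimab against control, and edgeR called 382 in the last with only the 4 libraries compared. Leaving out 1 library gave 0 to 3525, 0 to 2810 and 0 to 385 calls. The highest counts in the first 2 comparisons came without aging SNL replicate 2, and without replicate 1 there were 467, 0 and 385. Without either control or either spesolimab library there were 0 in all 3.

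On log2(TPM + 1) the median log2 fold change of all genes in aging SNL against control was -0.22, where TMM gave 0.01. On log2(TPM + 1), Dlk1 was at -0.12 in that comparison with and without the filter, and Ndn was at -0.0217 with spesolimab against control, again with and without the filter; with 0.1 in place of 1 the values were -0.12 and -0.0219. Leaving out 1 library moved the log2 fold change in aging SNL against control over a range of -0.12 to 0.37 for Dlk1, -1.04 to 0.14 for Ndn, -1.47 to 0.68 for Peg3, -1.76 to 0.0262 for Plagl1 and -1.003 to 0.0517 for Grb10. In spesolimab against aging SNL the ranges were -0.0806 to 0.30 for Dlk1, -0.0686 to 1.11 for Ndn, -0.20 to 1.95 for Peg3 and -0.0747 to 0.98 for Grb10, and in spesolimab against control that of Grb10 was -0.15 to 0.091. Dio3 stayed between -2.69 and -2.22 in aging SNL against control over the same 6 fits, and Mest between -1.89 and -0.55. The cause of these differences was not tested. Counts of Magel2 were as low as 5 in 1 library, which limits the precision of its fold changes there.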
